A study of Mus musculus with 15 samples.

Results

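The respiratory chain genes described here are those of complexes II to V of the inner mitochondrial membrane and of cytochrome c. They were all genes with a single symbol in the annotation of the array that named a subunit of succinate dehydrogenase (Sdha to Sdhd), of the cytochrome bc1 complex (the Uqcr genes and Cyc1), cytochrome c (Cycs), a nuclear subunit of cytochrome c oxidase (Cox4 to Cox8) or a subunit of ATP synthase (the Atp5 genes). This gave 48 of 19938 genes, of which 4 belonged to complex II, 9 to complex III, 17 to complex IV and 17 to complex V, with Cycs apart. The rule went by symbol and read no measured value, though it was set with earlier results of these data known. The brightest transcript cluster (the set of probes for 1 transcript) stood for each gene, a step that did use measured values. Some of these clusters may read a copy of their gene elsewhere in the genome, as given with the clusters below. RNA of whole liver of male C57BL/6J mice was measured on Affymetrix GeneChip Mouse Gene 1.0 ST arrays, 3 arrays in each of 5 groups. From week 8 the mice had eaten an atherogenic and high-fat diet with 3% branched-chain amino acids until week 68 (Ath+HF+BCAA 68w) or week 38 (Ath+HF+BCAA 38w), the same diet without the supplement until week 68 (Ath+HF 68w) or week 38 (Ath+HF 38w), or a basal diet until week 38 (basal 38w). The study asked whether the supplement of leucine, isoleucine and valine changes the course of diet-induced steatohepatitis. No basal arrays of week 68 were analysed here, so that in a comparison of a 68w group with basal 38w, diet, age and time on the diet cannot be told apart. Nothing in the labels states whether every array came from a different mouse, and the spread that the p-values measure may be technical in part.

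The chain passes electrons from food to oxygen and stores the energy as a proton gradient. Complex II takes electrons from succinate in the citric acid cycle and pumps no protons, complex III passes them to cytochrome c while pumping protons, and complex IV hands them to oxygen. Complex V, ATP synthase, lets the protons flow back through a rotating ring of c subunits and makes ATP in its F1 head. Hepatocytes are rich in mitochondria and burn fatty acids through this chain, and almost all of its subunits are made from nuclear genes, imported and joined to a few subunits encoded by mitochondrial DNA.

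The gene-level values of the 15 arrays correlated with each other at 0.935 to 0.995, and no arrays were identical. Hepatocyte markers were bright everywhere, with a mean log2 signal over 12 markers of 13.16 to 13.28 in the Ath+HF+BCAA 68w arrays, 13.33 to 13.37 in the Ath+HF 68w arrays and 13.23 to 13.26 in the basal 38w arrays. Markers of other liver cells differed far more. The mean over 19 macrophage and monocyte markers was 10.14 to 10.50 in Ath+HF+BCAA 68w arrays, 8.07 to 8.28 in Ath+HF 68w arrays, 9.44 to 9.86 in Ath+HF+BCAA 38w arrays, 9.65 to 9.92 in Ath+HF 38w arrays and 8.54 to 8.59 in basal 38w arrays. The mean over 12 stellate cell and matrix markers was 9.57 to 9.63 in Ath+HF+BCAA 68w arrays and 8.17 to 8.36 in Ath+HF 68w arrays. Between these groups the matrix genes Col1a2 (1.43) and Acta2 (1.12), the receptor Pdgfrb (1.57) and the bile duct marker Epcam (1.75) had positive log2 differences, all called. The fibrosis markers Col1a2, Acta2 and Pdgfrb run against the direction that the study itself describes for the supplement in liver. So does Epcam, which the study reads as a tumor-initiating marker. The arrays of week 68 may therefore stand against their labels. Whether the labels were exchanged was not tested, and such an exchange would turn every direction between them, and it would change the group named in every other comparison of week 68. The names Ath+HF+BCAA 68w and Ath+HF 68w therefore stand for labels of arrays throughout. In bulk liver, fewer cells of a type and less RNA per cell cannot be told apart, for the chain as for any other genes.

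Sequences before the transcription start are shown for the genes on which the results turn most, the c-ring genes Atp5g2 and Atp5g3, which lay on opposite sides of basal in both 68w groups, Uqcrh and Uqcrfs1 of complex III, which differed in their pattern, Sdhd, which was lower than basal in all 4 diet groups, and Atpif1, the inhibitor of ATP synthase. Each is the 250 bases before the RefSeq start on GRCm38.p6, 5′ to 3′ in the direction of transcription, with matches to 4 motifs on either strand in capitals. The motifs were those of NRF1 (GCGCANGCG), ETS factors such as GABP (CCGGAAG), YY1 (AAGATGGC) and NFY (CCAAT), none of which holds another.
Atp5g2: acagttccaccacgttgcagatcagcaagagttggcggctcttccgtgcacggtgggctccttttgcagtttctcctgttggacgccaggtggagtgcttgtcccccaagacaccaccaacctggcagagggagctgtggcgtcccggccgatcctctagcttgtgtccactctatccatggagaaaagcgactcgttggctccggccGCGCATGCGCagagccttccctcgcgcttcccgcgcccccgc
Atp5g3: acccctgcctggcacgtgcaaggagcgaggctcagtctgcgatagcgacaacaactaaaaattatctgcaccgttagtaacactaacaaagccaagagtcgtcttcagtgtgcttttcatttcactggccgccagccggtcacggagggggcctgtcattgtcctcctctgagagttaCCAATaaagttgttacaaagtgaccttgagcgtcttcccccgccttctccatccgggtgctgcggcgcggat
Uqcrh: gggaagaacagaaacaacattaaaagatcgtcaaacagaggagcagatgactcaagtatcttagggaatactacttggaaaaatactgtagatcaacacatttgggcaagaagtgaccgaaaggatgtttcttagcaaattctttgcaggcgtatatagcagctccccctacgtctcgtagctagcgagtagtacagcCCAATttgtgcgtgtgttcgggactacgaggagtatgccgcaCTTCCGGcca
Uqcrfs1: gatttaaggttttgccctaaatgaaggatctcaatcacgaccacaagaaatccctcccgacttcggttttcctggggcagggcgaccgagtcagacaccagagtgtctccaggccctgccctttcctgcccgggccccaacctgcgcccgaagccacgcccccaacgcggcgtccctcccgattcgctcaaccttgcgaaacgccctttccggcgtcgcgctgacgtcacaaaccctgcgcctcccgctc
Sdhd: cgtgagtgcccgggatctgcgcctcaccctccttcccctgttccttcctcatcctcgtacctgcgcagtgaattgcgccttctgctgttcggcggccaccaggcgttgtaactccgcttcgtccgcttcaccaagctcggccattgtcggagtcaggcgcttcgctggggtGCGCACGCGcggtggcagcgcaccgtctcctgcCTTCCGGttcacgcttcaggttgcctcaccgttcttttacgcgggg
Atpif1: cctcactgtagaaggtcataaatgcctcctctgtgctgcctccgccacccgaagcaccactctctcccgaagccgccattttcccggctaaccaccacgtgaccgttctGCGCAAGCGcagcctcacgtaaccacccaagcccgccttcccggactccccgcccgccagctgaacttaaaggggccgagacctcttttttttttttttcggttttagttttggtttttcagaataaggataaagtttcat
The windows lie on the minus strand at chr15:102671048-102671297 (Atp5g2), chr2:73911327-73911576 (Atp5g3), chr4:116075071-116075320 (Uqcrh), chr13:30545317-30545566 (Uqcrfs1), chr9:50603850-50604099 (Sdhd) and chr4:132535415-132535664 (Atpif1). Atp5g2, Sdhd and Atpif1 held the NRF1 letters, Uqcrh and Sdhd the ETS letters, Atp5g3 and Uqcrh the NFY letters, and Uqcrfs1 none of them. RefSeq windows were at hand for 36 of the 48 members, in 39 windows. The NRF1 letters were found in 23.1% of them and in 5.16% of all 32851 windows, the ETS letters in 23.1% and 6.91%, the YY1 letters in 2.56% and 1.56%, and the NFY letters in 56.4% and 33.8%. A match describes letters and no bound site. Atp5g2 and Sdhd, which both hold the NRF1 letters, differed in direction against basal 38w in both 68w groups and were both lower between these groups. The cluster read for Atp5g2 may be that of a copy elsewhere in the genome, to which this window does not belong. Whether the letters go with the direction or size of a difference was not tested.

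At 68w the chain was lower in Ath+HF+BCAA than in Ath+HF livers across all 4 complexes, as the arrays are labelled. This runs against the study's own account of its arrays. There, many genes tied to mitochondria fell as the disease advanced, and the supplement reversed the fall. Its main text does not name genes of the chain among them. Of the 48 members, 0 were called higher and 31 lower at an adjusted p under 0.05, where 19.8% of all genes tested were called higher and 16.4% lower. The median log2 difference of the members was -0.40, against -0.09 over all genes tested. Bright genes were lower more often, since 34.8% of the 2112 genes with a mean log2 value of at least 10 were called lower, against 25 of the 35 members that were as bright (a brightness limit chosen after the values were seen). By complex, 2 of 4 members of complex II were lower (median -0.20), 5 of 9 of complex III (-0.35), 11 of 17 of complex IV (-0.41) and 13 of 17 of complex V (-0.41), while Cycs was not called (-0.03). With quantile normalization of the deposited values 3 members were called higher (Sdha, Cox6b1 and Atp5b) and 25 lower, and with array medians set equal 0 were higher and 37 lower, where that scaling called 14.9% of all genes higher and 36.9% lower. In the same comparison 17 of 19 macrophage and monocyte markers, 11 of 12 stellate cell and matrix markers, 4 of 4 cholangiocyte markers, 6 of 8 endothelial markers and 6 of 9 T and B lymphocyte markers were called higher, and 3 of 12 hepatocyte markers were lower (Fga -0.70, Hnf4a -0.31 and Ttr -0.29). Their part in the lower values of the chain was not tested.

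**Figure D1:**
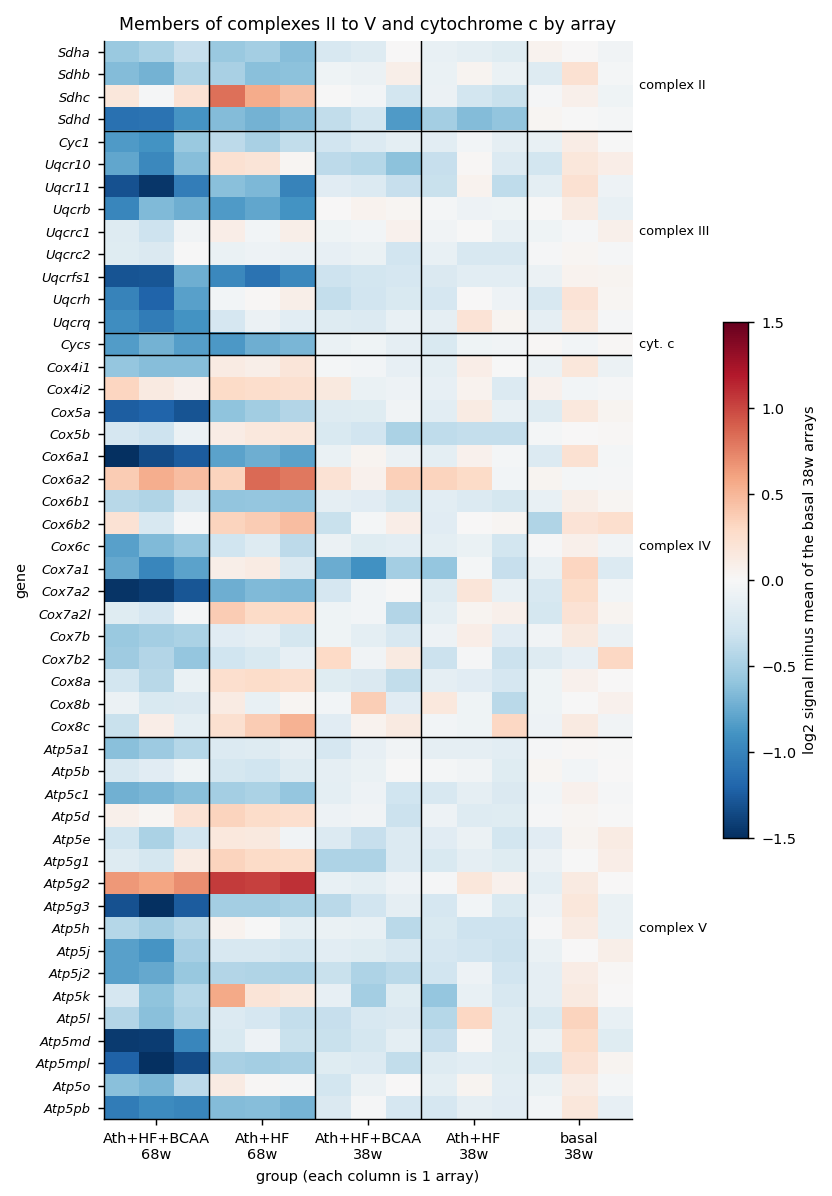
Log2 signal of each of the 48 members (rows, by complex) on each of the 15 arrays (columns, by group) as the difference from the mean of the 3 basal 38w arrays, blue for lower and red for higher, on a colour scale that ends at -1.5 and 1.5. The columns of Ath+HF+BCAA 68w are blue for most members, those of Ath+HF 68w hold both blue rows such as Uqcrfs1 and Cycs and red rows such as Atp5g2 and Sdhc, and the 38w columns are pale.

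The mean over the members of a complex, set against its mean in the basal arrays, was lower on every Ath+HF+BCAA 68w array than on any Ath+HF 68w array for complexes II to V. For complex III the mean difference from basal was -0.84, -0.89 and -0.61 in Ath+HF+BCAA 68w arrays and -0.32, -0.34 and -0.36 in Ath+HF 68w arrays. For complex IV it was -0.48, -0.49 and -0.42 in Ath+HF+BCAA 68w arrays and -0.07, -0.02 and -0.03 in Ath+HF 68w arrays. For complex V it was -0.57, -0.64 and -0.45 in Ath+HF+BCAA 68w arrays and -0.07, -0.10 and -0.14 in Ath+HF 68w arrays. Complex IV and V of Ath+HF 68w livers thus lay within the range of the basal arrays (-0.12 to 0.11 for complex IV) or near its lower end, and no array of Ath+HF+BCAA 68w did. Complex II showed the smallest step, with -0.54, -0.58 and -0.37 in Ath+HF+BCAA 68w arrays and -0.22, -0.32 and -0.36 in Ath+HF 68w arrays. Cycs showed none by its brightest cluster, with -0.84, -0.71 and -0.83 in Ath+HF+BCAA 68w arrays and -0.86, -0.73 and -0.68 in Ath+HF 68w arrays. A dimmer cluster of Cycs was called lower between these groups, as given below, so that this contrast depends on the cluster chosen.

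**Figure D2:**
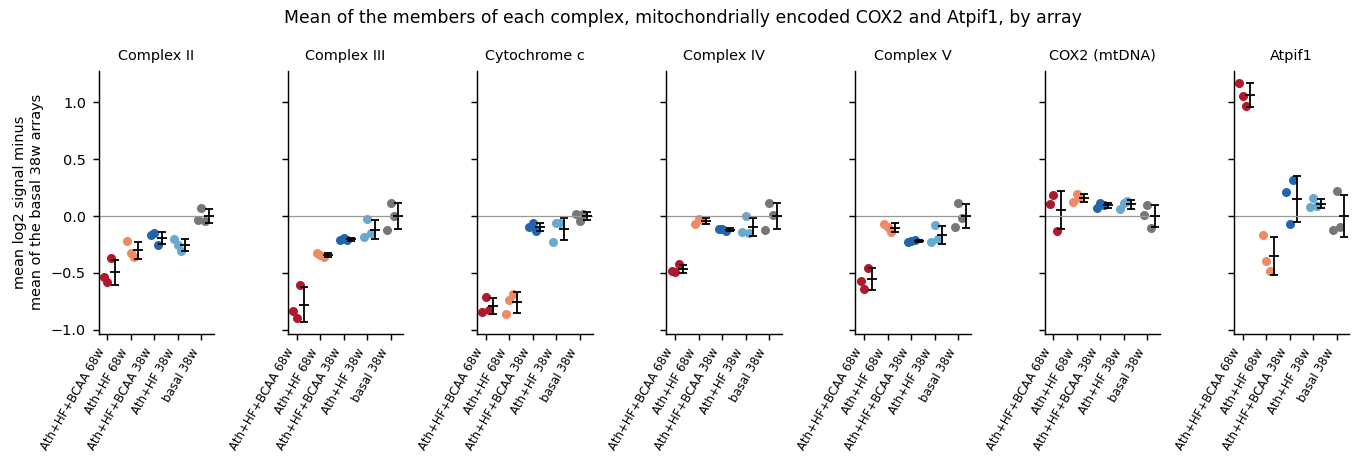
Mean log2 signal of the members of each complex, of cytochrome c, of the mitochondrially encoded COX2 and of Atpif1, as the difference from the mean of the basal 38w arrays (y axis), for each array (points) of the 5 groups (x axis), with the group mean and SD of 3 arrays in black. Ath+HF+BCAA 68w arrays are lowest for complexes III to V, both 68w groups are low for cytochrome c, COX2 stays between -0.13 and 0.19, and Atpif1 is highest in Ath+HF+BCAA 68w at 0.96 to 1.17.

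Complex II is described by its matrix head and its membrane anchors (a grouping made after the values were seen, whose difference was not tested). The head genes Sdha, the flavoprotein that oxidises succinate, and Sdhb, the iron-sulfur protein next to it, were lower in both 68w groups than in basal livers, and no difference between the 68w groups was called. Signals of Sdha were 11.68, 11.76 and 11.88 in Ath+HF+BCAA 68w, 11.68, 11.72 and 11.60 in Ath+HF 68w, 11.99, 12.04 and 12.25 in Ath+HF+BCAA 38w, 12.12, 12.09 and 12.05 in Ath+HF 38w and 12.29, 12.24 and 12.18 in basal 38w arrays. Both 68w groups lay below every other array, and they overlapped each other. Against basal 38w Sdha was lower, at a log2 difference of -0.46 (SE 0.09, adjusted p = 0.000771) in Ath+HF+BCAA 68w and -0.57 (SE 0.09, adjusted p = 0.000319) in Ath+HF 68w, and between the 68w groups the difference was 0.11 (SE 0.09, adjusted p = 0.357). Sdhb measured 10.22, 10.17 and 10.43 in Ath+HF+BCAA 68w, 10.39, 10.25 and 10.27 in Ath+HF 68w, 10.81, 10.79 and 10.96 in Ath+HF+BCAA 38w, 10.78, 10.92 and 10.78 in Ath+HF 38w and 10.68, 11.10 and 10.85 in basal 38w arrays. Its pattern was that of Sdha, with log2 differences of -0.60 for Ath+HF+BCAA 68w and -0.57 for Ath+HF 68w against basal 38w.

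Among the anchors, which hold the complex in the membrane and bind ubiquinone, Sdhc was the only member of complex II called higher in any comparison. Sdhc measured 11.24, 11.04 and 11.28 in Ath+HF+BCAA 68w, 11.89, 11.62 and 11.51 in Ath+HF 68w, 11.06, 11.02 and 10.79 in Ath+HF+BCAA 38w, 10.98, 10.79 and 10.73 in Ath+HF 38w and 11.05, 11.14 and 11.00 in basal 38w arrays. All Ath+HF 68w arrays exceeded all others, those of Ath+HF+BCAA 68w included, and the log2 difference was -0.49 (SE 0.12, adjusted p = 0.00433) for Ath+HF+BCAA 68w against Ath+HF 68w and 0.61 (SE 0.12, adjusted p = 0.00112) for Ath+HF 68w against basal 38w. Sdhd, the other anchor, was 10.30, 10.31 and 10.53 in Ath+HF+BCAA 68w, 10.76, 10.70 and 10.77 in Ath+HF 68w, 11.05, 11.14 and 10.57 in Ath+HF+BCAA 38w, 10.90, 10.77 and 10.82 in Ath+HF 38w and 11.45, 11.41 and 11.39 in basal 38w arrays. It was lower than basal in all 4 diet groups, at -1.04 (SE 0.12, adjusted p = 6.83e-06) in Ath+HF+BCAA 68w, -0.67 (SE 0.12, adjusted p = 0.000859) in Ath+HF 68w, -0.50 (SE 0.12, adjusted p = 0.0295) in Ath+HF+BCAA 38w and -0.59 (SE 0.12, adjusted p = 0.0136) in Ath+HF 38w. The call between the 68w groups (log2 difference -0.37, adjusted p = 0.0316) was lost when any 1 of the 3 Ath+HF 68w arrays, or Ath+HF+BCAA 68w replicate 1 or replicate 2, was left out.

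Complex III held both a set of small subunits that were lower in Ath+HF+BCAA 68w and a set of core and redox subunits of which most were not called between these groups (a grouping made after the values were seen, whose difference was not tested). Of 5 small accessory subunits 4 were called lower in Ath+HF+BCAA 68w than in Ath+HF 68w, with a median log2 difference of -0.80, and of 4 core and redox subunits 1 was (Cyc1), with a median of -0.16. Uqcrh, the hinge protein through which cytochrome c docks, measured 10.14, 9.94 and 10.32 in Ath+HF+BCAA 68w, 11.10, 11.16 and 11.23 in Ath+HF 68w, 10.78, 10.85 and 10.91 in Ath+HF+BCAA 38w, 10.89, 11.15 and 11.07 in Ath+HF 38w and 10.90, 11.35 and 11.17 in basal 38w arrays. The 3 Ath+HF+BCAA 68w arrays lay below all the others, and the Ath+HF 68w arrays were within the range of the basal arrays. The log2 difference of Uqcrh was -1.02 (SE 0.12, adjusted p = 8.31e-06) between the 68w groups and 0.02 (SE 0.12, adjusted p = 0.919) for Ath+HF 68w against basal 38w. Uqcr10, a small subunit near the Rieske protein, was 9.10, 8.91 and 9.24 in Ath+HF+BCAA 68w, 10.10, 10.06 and 9.90 in Ath+HF 68w, 9.48, 9.45 and 9.26 in Ath+HF+BCAA 38w, 9.53, 9.89 and 9.67 in Ath+HF 38w and 9.61, 10.05 and 9.97 in basal 38w arrays. Its log2 difference between the 68w groups was -0.94 (SE 0.13, adjusted p = 4.53e-05), and it was also lower in Ath+HF+BCAA 38w than in basal 38w (-0.48, SE 0.13, adjusted p = 0.0481). Uqcrq, a subunit that lies by the ubiquinone site, gave 10.10, 9.99 and 10.14 in Ath+HF+BCAA 68w, 10.79, 10.95 and 10.89 in Ath+HF 68w, 10.84, 10.83 and 10.93 in Ath+HF+BCAA 38w, 10.91, 11.25 and 11.08 in Ath+HF 38w and 10.90, 11.20 and 11.02 in basal 38w arrays. Here too the Ath+HF+BCAA 68w arrays stood below all others, with a log2 difference of -0.80 (SE 0.10, adjusted p = 2.12e-05). Uqcr11 was lower at -0.50 (SE 0.15, adjusted p = 0.0144), and it was lower than basal in both 68w groups, at -1.27 in Ath+HF+BCAA 68w and -0.77 in Ath+HF 68w.

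Uqcrb, the fifth small subunit, behaved otherwise. It measured 11.86, 12.17 and 12.10 in Ath+HF+BCAA 68w, 11.99, 12.05 and 11.94 in Ath+HF 68w, 12.83, 12.88 and 12.87 in Ath+HF+BCAA 38w, 12.80, 12.75 and 12.76 in Ath+HF 38w and 12.83, 12.95 and 12.72 in basal 38w arrays. Both 68w groups lay below every 38w array and overlapped each other, with a log2 difference of 0.05 (SE 0.10, adjusted p = 0.685) between them and of -0.84 (SE 0.10, adjusted p = 2.73e-05) for Ath+HF 68w against basal 38w. Uqcrfs1, the Rieske iron-sulfur protein that passes electrons to cytochrome c1 (named after its values were seen), was 8.50, 8.51 and 9.06 in Ath+HF+BCAA 68w, 8.82, 8.68 and 8.82 in Ath+HF 68w, 9.48, 9.51 and 9.54 in Ath+HF+BCAA 38w, 9.58, 9.64 and 9.63 in Ath+HF 38w and 9.70, 9.84 and 9.83 in basal 38w arrays. It had the lowest log2 difference of all members in Ath+HF 68w against basal 38w, -1.02 (SE 0.12, adjusted p = 4.65e-05), and -0.09 (SE 0.12, adjusted p = 0.604) between the 68w groups. Cyc1, cytochrome c1, was lower than basal at -0.77 in Ath+HF+BCAA 68w and -0.42 in Ath+HF 68w. The core proteins Uqcrc1 and Uqcrc2, which scaffold the complex on the matrix side, were called in no comparison, and their log2 differences for Ath+HF+BCAA 68w against Ath+HF 68w were -0.23 and -0.05.

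Cycs, the small carrier between complexes III and IV that also triggers apoptosis when it leaves the mitochondrion, followed Uqcrb. It measured 11.85, 11.98 and 11.86 in Ath+HF+BCAA 68w, 11.83, 11.96 and 12.01 in Ath+HF 68w, 12.60, 12.63 and 12.56 in Ath+HF+BCAA 38w, 12.47, 12.63 and 12.63 in Ath+HF 38w and 12.71, 12.65 and 12.71 in basal 38w arrays. No 68w array reached any 38w array, while the 68w groups overlapped. The log2 difference against basal 38w was -0.79 (SE 0.09, adjusted p = 2.37e-06) for Ath+HF+BCAA 68w and -0.76 (SE 0.09, adjusted p = 2.6e-05) for Ath+HF 68w, and between the 68w groups it was -0.03 (SE 0.09, adjusted p = 0.772). With quantile normalization the sign of that last difference turned (0.16). A dimmer cluster of Cycs was called lower between the 68w groups at -0.33, so that the clusters of Cycs differed in this call.

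**Figure D3:**
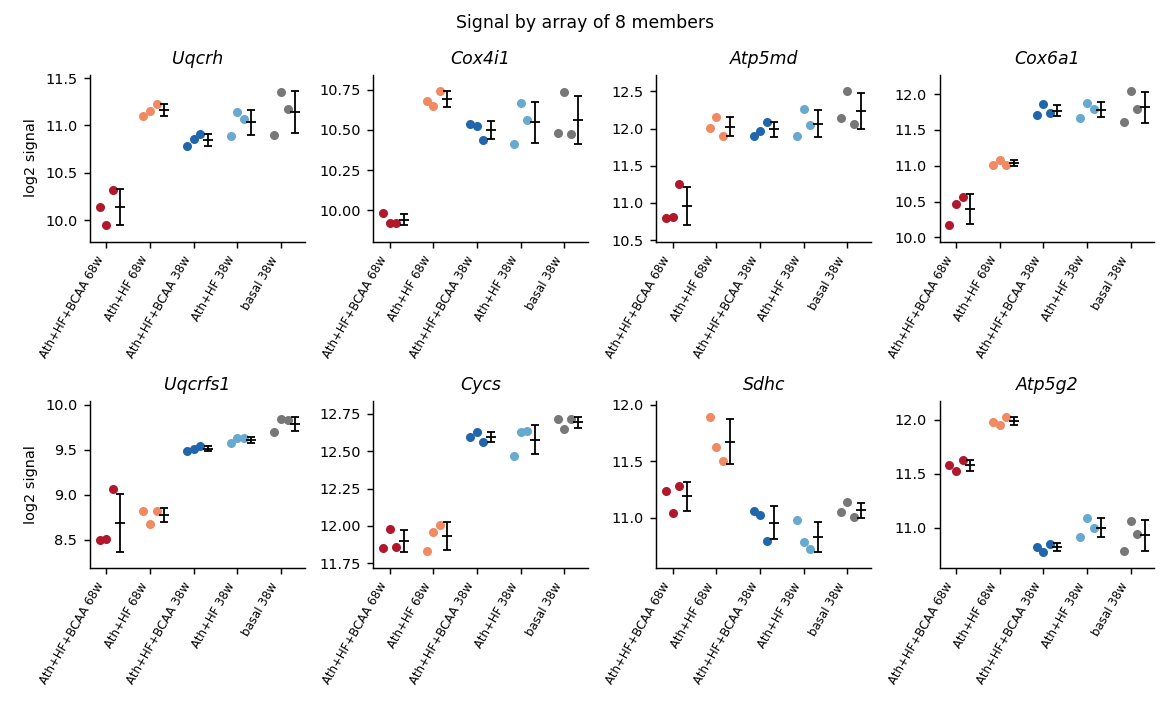
Log2 signal (y axis, a scale of its own in each panel) of 8 members on each array (points) of the 5 groups (x axis), with the group mean and SD of 3 arrays in black. Uqcrh, Cox4i1 and Atp5md are low in Ath+HF+BCAA 68w only, Cox6a1 steps down over both 68w groups, Uqcrfs1 and Cycs are low in both alike, and Sdhc and Atp5g2 are highest in Ath+HF 68w.

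In complex IV 10 genes were grouped as forms that liver shares with most tissues, Cox7a2l among them (a grouping made after the values were seen). Of these 9 were called lower in Ath+HF+BCAA 68w than in Ath+HF 68w, with a median log2 difference of -0.50, and the exception was Cox6b1. Of the 7 isoforms known from muscle, lung or testis 2 were called lower, with a median of -0.30, and all 7 lay below the median brightness of all genes (7.38), where signals are near the background of the array and differences are compressed. Cox4i1, the subunit through which ATP slows the enzyme, measured 9.98, 9.92 and 9.92 in Ath+HF+BCAA 68w, 10.68, 10.65 and 10.74 in Ath+HF 68w, 10.54, 10.52 and 10.43 in Ath+HF+BCAA 38w, 10.41, 10.67 and 10.56 in Ath+HF 38w and 10.48, 10.74 and 10.47 in basal 38w arrays. The Ath+HF+BCAA 68w arrays lay below every other array, and the log2 difference of -0.75 (SE 0.10, adjusted p = 1.67e-05) came without a called difference between Ath+HF 68w and basal 38w (0.13). Its partner Cox4i2, known from lung, was 7.14, 6.94 and 6.88 in Ath+HF+BCAA 68w, 7.10, 7.07 and 7.05 in Ath+HF 68w, 6.96, 6.72 and 6.74 in Ath+HF+BCAA 38w, 6.69, 6.87 and 6.60 in Ath+HF 38w and 6.87, 6.77 and 6.79 in basal 38w arrays. No difference of Cox4i2 was called between the 68w groups (-0.09, SE 0.10, adjusted p = 0.505).

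Cox5a, a nuclear subunit on the matrix side, was lower in 2 steps. Its signals were 9.67, 9.71 and 9.61 in Ath+HF+BCAA 68w, 10.30, 10.39 and 10.46 in Ath+HF 68w, 10.71, 10.73 and 10.86 in Ath+HF+BCAA 38w, 10.75, 11.02 and 10.80 in Ath+HF 38w and 10.71, 11.07 and 10.94 in basal 38w arrays. The Ath+HF+BCAA 68w arrays lay below the Ath+HF 68w arrays, which lay below the 9 arrays of 38w, with log2 differences of -0.72 (SE 0.11, adjusted p = 6.35e-05) between the 68w groups and -1.24 (SE 0.11, adjusted p = 2.27e-07) for Ath+HF+BCAA 68w against basal 38w. Cox6a1, the liver isoform of subunit 6a, showed the same 2 steps and the lowest difference from basal of any member. It measured 10.17, 10.47 and 10.57 in Ath+HF+BCAA 68w, 11.02, 11.08 and 11.02 in Ath+HF 68w, 11.71, 11.86 and 11.73 in Ath+HF+BCAA 38w, 11.67, 11.88 and 11.78 in Ath+HF 38w and 11.61, 12.05 and 11.79 in basal 38w arrays. For Ath+HF+BCAA 68w against basal 38w its log2 difference was -1.41 (SE 0.12, adjusted p = 2.65e-07), for Ath+HF 68w -0.77 (SE 0.12, adjusted p = 0.000264), and between the 68w groups -0.64 (SE 0.12, adjusted p = 0.000711). Cox6a2, the isoform of heart and skeletal muscle, went the other way, with signals of 7.39, 7.55 and 7.47 in Ath+HF+BCAA 68w, 7.35, 7.86 and 7.81 in Ath+HF 68w, 7.22, 7.07 and 7.37 in Ath+HF+BCAA 38w, 7.34, 7.29 and 6.97 in Ath+HF 38w and 7.05, 6.98 and 7.00 in basal 38w arrays. It was higher than basal by 0.46 (SE 0.14, adjusted p = 0.0117) in Ath+HF+BCAA 68w and 0.66 (SE 0.14, adjusted p = 0.0017) in Ath+HF 68w, and no difference between the 68w groups was called. Of 9 markers of striated muscle 1 was called higher in Ath+HF 68w than in basal 38w (Myh2, 0.24), where 19% of all genes were. The part of muscle RNA in the Cox6a2 signal was not tested.

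The pair of subunit 7a did not part in this way. Cox7a2, the liver isoform, was 9.52, 9.57 and 9.70 in Ath+HF+BCAA 68w, 10.25, 10.32 and 10.32 in Ath+HF 68w, 10.74, 10.95 and 10.99 in Ath+HF+BCAA 38w, 10.80, 11.17 and 10.88 in Ath+HF 38w and 10.75, 11.27 and 10.96 in basal 38w arrays. Its steps were those of Cox6a1, with log2 differences of -0.70 (SE 0.13, adjusted p = 0.000527) between the 68w groups and -1.39 (SE 0.13, adjusted p = 5.44e-07) for Ath+HF+BCAA 68w against basal 38w. Cox7a1, the isoform of heart and muscle, was 6.84, 6.63 and 6.80 in Ath+HF+BCAA 68w, 7.70, 7.73 and 7.39 in Ath+HF 68w, 6.86, 6.69 and 7.10 in Ath+HF+BCAA 38w, 7.03, 7.57 and 7.27 in Ath+HF 38w and 7.49, 7.93 and 7.40 in basal 38w arrays. It was lower in Ath+HF+BCAA 68w than in Ath+HF 68w at -0.85 (SE 0.16, adjusted p = 0.000691), and lower than basal in Ath+HF+BCAA 38w as well (-0.72, SE 0.16, adjusted p = 0.0165), while in Ath+HF 68w it overlapped with basal. Cox8a, the form of subunit 8 in liver, gave 11.60, 11.46 and 11.78 in Ath+HF+BCAA 68w, 12.12, 12.15 and 12.13 in Ath+HF 68w, 11.70, 11.66 and 11.51 in Ath+HF+BCAA 38w, 11.74, 11.71 and 11.62 in Ath+HF 38w and 11.81, 11.94 and 11.88 in basal 38w arrays. Ath+HF 68w arrays were the highest and the log2 difference between the 68w groups was -0.52 (SE 0.09, adjusted p = 0.000439), with Ath+HF 68w above basal by 0.26 (SE 0.09, adjusted p = 0.0425) and Ath+HF+BCAA 68w below it at -0.26 (SE 0.09, adjusted p = 0.0324). Cox8b, its counterpart in muscle, was 6.68, 6.55 and 6.56 in Ath+HF+BCAA 68w, 6.90, 6.67 and 6.81 in Ath+HF 68w, 6.74, 7.15 and 6.61 in Ath+HF+BCAA 38w, 6.94, 6.71 and 6.38 in Ath+HF 38w and 6.71, 6.78 and 6.84 in basal 38w arrays. No comparison of Cox8b was called, although the Ath+HF+BCAA 68w arrays lay just below the basal arrays.

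Cox6b1, which joins the monomers of the enzyme on the side of cytochrome c, was the member of complex IV that ran against the rest at 68w. Its signals were 11.30, 11.26 and 11.50 in Ath+HF+BCAA 68w, 11.13, 11.13 and 11.12 in Ath+HF 68w, 11.58, 11.54 and 11.45 in Ath+HF+BCAA 38w, 11.56, 11.52 and 11.46 in Ath+HF 38w and 11.60, 11.81 and 11.74 in basal 38w arrays. Every Ath+HF+BCAA 68w array was above every Ath+HF 68w array, and the log2 difference of 0.23 (SE 0.09, adjusted p = 0.0623) missed the threshold. It was called higher under 4 alternatives (array weights, dim genes left out, quantile normalization, and a variance trend with a robust fit). Against basal 38w Cox6b1 was lower in both groups, at -0.36 in Ath+HF+BCAA 68w and -0.59 in Ath+HF 68w. Among the other subunits Cox5b (-0.36), Cox6c (-0.39) and Cox7b (-0.32) were called lower in Ath+HF+BCAA 68w than in Ath+HF 68w, as was the testis isoform Cox8c (-0.50). So was Cox7a2l (-0.48), a factor that links complexes III and IV and is counted with complex IV here. Of these, the calls of Cox5b, Cox6c and Cox7b were lost with quantile normalization.

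In complex V the parts that sit in the membrane or hold the head still were called lower in Ath+HF+BCAA 68w more often than the head (a grouping made after the values were seen). Of 3 c-ring genes 3 were lower than in Ath+HF 68w, of 4 genes of the peripheral stalk 4, of 5 small membrane subunits 4, and of 5 genes of the F1 head and central stalk 2 (Atp5a1 at -0.35 and Atp5e at -0.44). Atp5b, the catalytic subunit of the head, had a log2 difference of 0.09 and Atp5c1, the turning shaft, of -0.15, neither of them called. Whether these shares differ was not tested.

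The c ring is encoded by 3 genes with the same mature protein, and they moved apart at 68w. Atp5g2 measured 11.58, 11.52 and 11.63 in Ath+HF+BCAA 68w, 11.98, 11.95 and 12.02 in Ath+HF 68w, 10.82, 10.78 and 10.85 in Ath+HF+BCAA 38w, 10.91, 11.10 and 11.00 in Ath+HF 38w and 10.78, 11.07 and 10.94 in basal 38w arrays. The 6 arrays of 68w lay above the 9 arrays of 38w without overlap, and the Ath+HF 68w arrays above those of Ath+HF+BCAA 68w. Atp5g2 was the member most above basal, by 0.65 (SE 0.09, adjusted p = 2.87e-05) in Ath+HF+BCAA 68w and 1.05 (SE 0.09, adjusted p = 4.01e-06) in Ath+HF 68w. The number of the cluster read for Atp5g2 falls among those of another chromosome, so that it may read a copy of the gene. Atp5g3 went down over the same groups, with signals of 11.09, 10.91 and 11.15 in Ath+HF+BCAA 68w, 11.89, 11.90 and 11.93 in Ath+HF 68w, 12.00, 12.11 and 12.27 in Ath+HF+BCAA 38w, 12.15, 12.36 and 12.17 in Ath+HF 38w and 12.32, 12.57 and 12.31 in basal 38w arrays. Against basal 38w its log2 difference was -1.35 (SE 0.11, adjusted p = 1.15e-07) in Ath+HF+BCAA 68w and -0.49 (SE 0.11, adjusted p = 0.00229) in Ath+HF 68w. Atp5g1 was higher than basal in Ath+HF 68w (0.30, adjusted p = 0.0412) and not called in Ath+HF+BCAA 68w (-0.11). Between the 68w groups all 3 were lower in Ath+HF+BCAA, Atp5g1 at -0.41, Atp5g2 at -0.41 (adjusted p = 0.00236) and Atp5g3 at -0.86 (SE 0.11, adjusted p = 1.19e-05), and the calls of Atp5g1 and Atp5g2 were lost with quantile normalization.

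The small membrane subunits hold dimers of ATP synthase together at the edge of the cristae. Atp5md, also known as DAPIT, had the lowest log2 difference of all members between the 68w groups, -1.06 (SE 0.15, adjusted p = 3.28e-05). It measured 10.80, 10.81 and 11.26 in Ath+HF+BCAA 68w, 12.01, 12.16 and 11.90 in Ath+HF 68w, 11.90, 11.97 and 12.09 in Ath+HF+BCAA 38w, 11.89, 12.26 and 12.04 in Ath+HF 38w and 12.14, 12.51 and 12.06 in basal 38w arrays. All arrays outside Ath+HF+BCAA 68w lay between 11.89 and 12.51, and Ath+HF 68w did not differ from basal by a called amount (-0.21). The cluster used may be that of a copy of the gene, and where its probes lie was not checked for Atp5md. Atp5mpl, the proteolipid next to it, was 9.77, 9.49 and 9.64 in Ath+HF+BCAA 68w, 10.50, 10.47 and 10.49 in Ath+HF 68w, 10.80, 10.78 and 10.61 in Ath+HF+BCAA 38w, 10.78, 10.82 and 10.80 in Ath+HF 38w and 10.72, 11.20 and 11.02 in basal 38w arrays. It was lower at -0.85 (SE 0.11, adjusted p = 2.59e-05) between the 68w groups and at -1.35 (SE 0.11, adjusted p = 2.23e-07) against basal 38w. Atp5k was lower at -0.73 (SE 0.15, adjusted p = 0.00149) and Atp5j2 at -0.26 (SE 0.10, adjusted p = 0.0474), while Atp5l was not called (-0.24). The call of Atp5j2, the weakest of the 31, was lost in 10 of the 15 fits that left out an array. In the peripheral stalk Atp5pb, its long b subunit, was 10.32, 10.42 and 10.39 in Ath+HF+BCAA 68w, 10.72, 10.73 and 10.67 in Ath+HF 68w, 11.16, 11.35 and 11.12 in Ath+HF+BCAA 38w, 11.12, 11.23 and 11.20 in Ath+HF 38w and 11.33, 11.54 and 11.25 in basal 38w arrays. It was lower than basal at -0.99 (SE 0.10, adjusted p = 7.68e-07) in Ath+HF+BCAA 68w and -0.66 (SE 0.10, adjusted p = 0.000141) in Ath+HF 68w, and at -0.33 between the 68w groups. The other stalk genes were lower between the 68w groups at -0.61 (Atp5o), -0.48 (Atp5j) and -0.42 (Atp5h).

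Atpif1, the inhibitor that stops ATP synthase from burning ATP when the gradient fails, was higher in Ath+HF+BCAA 68w than in Ath+HF 68w or basal livers and lower in Ath+HF 68w than in basal livers. It measured 11.55, 11.43 and 11.34 in Ath+HF+BCAA 68w, 10.21, 9.97 and 9.89 in Ath+HF 68w, 10.58, 10.30 and 10.69 in Ath+HF+BCAA 38w, 10.46, 10.53 and 10.46 in Ath+HF 38w and 10.25, 10.59 and 10.28 in basal 38w arrays. The Ath+HF+BCAA 68w arrays exceeded all others, and the Ath+HF 68w arrays were the lowest, without overlap with basal. The log2 difference of Atpif1 was 1.41 (SE 0.12, adjusted p = 3.41e-07) between the 68w groups, 1.06 (SE 0.12, adjusted p = 4.89e-06) for Ath+HF+BCAA 68w against basal 38w and -0.35 (SE 0.12, adjusted p = 0.0365) for Ath+HF 68w against basal 38w. It was chosen as the inhibitor of complex V and is no member by the rule.

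Against basal livers the Ath+HF+BCAA 68w group had 2 members called higher (22.9% of all genes were) and 34 lower (21.8% of all genes), with a median log2 difference of -0.55. The 2 were Atp5g2 and Cox6a2. With array medians set equal these numbers were 1 and 41, where 13.3% of all genes were higher and 38.2% lower. The Ath+HF 68w group had 7 higher (19% of all genes) and 19 lower (19.1% of all genes), with a median of -0.18. Among genes with a mean log2 value of at least 10, 44.9% were called lower in Ath+HF+BCAA 68w against 27 of the 35 members as bright, and 31.9% in Ath+HF 68w against 18 of these 35. The 7 of Ath+HF 68w were Atp5g2 (1.05), Cox6a2 (0.66), Sdhc (0.61), Cox8c (0.38), Atp5g1 (0.30), Atp5d (0.29) and Cox8a (0.26). With array medians set equal 3 were higher and 22 lower, where that scaling called 13.3% of all genes higher and 22.9% lower. The number higher was also 3 without Ath+HF 68w replicate 2 or without basal replicate 1, and 4 without Ath+HF 68w replicate 1 or replicate 3. Basal replicate 2 stood above the other basal arrays, since the mean over all members, as the difference from the group's mean, was -0.10 in replicate 1, 0.11 in replicate 2 and -0.01 in replicate 3. The comparisons of the 68w groups with basal share these 3 arrays.

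Between 38w and 68w under the same diet label the chain was lower at 68w in Ath+HF+BCAA livers and mixed in Ath+HF livers. Age and a longer time on the diet cannot be told apart in these comparisons, which also depend on the labels of the 68w arrays. Ath+HF+BCAA 68w against Ath+HF+BCAA 38w gave 2 members higher (20.5% of all genes) and 26 lower (18.3% of all genes), with a median log2 difference of -0.34. Ath+HF 68w against Ath+HF 38w gave 9 higher (17.6% of all genes) and 15 lower (20% of all genes), with a median of -0.02. With quantile normalization the numbers were 5 higher and 22 lower in Ath+HF+BCAA and 13 higher and 14 lower in Ath+HF, and with array medians set equal 11.8% of all genes were higher and 28.8% lower in Ath+HF+BCAA. The lowest in Ath+HF+BCAA were Cox6a1 (-1.36), Cox7a2 (-1.29), Cox5a (-1.10), Atp5mpl (-1.10) and Atp5g3 (-1.08), and in Ath+HF they were Uqcrfs1 (-0.84), Uqcrb (-0.78), Cox6a1 (-0.74), Cox7a2 (-0.65) and Cycs (-0.64). The highest was Atp5g2 in both, with 0.76 in Ath+HF+BCAA and 0.98 in Ath+HF. In Ath+HF livers Sdhc (0.84), Atp5k (0.61), Cox5b (0.52) and Atp5g1 (0.48) rose as well.

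At 38w few members were called against basal, although the mean over all members lay below it. As the difference from the basal mean it was -0.18, -0.16 and -0.18 in Ath+HF+BCAA 38w arrays and -0.19, -0.06 and -0.18 in Ath+HF 38w arrays. The group means were -0.17 and -0.14, beside -0.16 in Ath+HF 68w, and the basal arrays themselves ran from -0.10 to 0.11. In Ath+HF+BCAA 38w against basal 38w 0 members were called higher (3.67% of all genes) and 5 lower (1.82% of all genes), namely Cox7a1 (-0.72), Sdhd (-0.50), Uqcr10 (-0.48), Atp5j2 (-0.40) and Cox5b (-0.33). In Ath+HF 38w 0 were higher (3.05% of all genes) and 2 lower (1.18% of all genes), which were Sdhd (-0.59) and Cox5b (-0.37). Cox5b, a zinc-binding subunit, measured 11.43, 11.38 and 11.18 in Ath+HF+BCAA 38w arrays, 11.28, 11.31 and 11.30 in Ath+HF 38w arrays and 11.63, 11.67 and 11.68 in basal arrays. These counts rest on few arrays. The 5 became 0 without basal replicate 2, 1 without basal replicate 3 or Ath+HF+BCAA 38w replicate 1, 2 without Ath+HF+BCAA 38w replicate 2 or replicate 3, and 3 without basal replicate 1, Ath+HF 38w replicate 3, Ath+HF 68w replicate 1 or replicate 2, or Ath+HF+BCAA 68w replicate 1. The 2 became 0 without Ath+HF 38w replicate 2 and 1 without any other array of the groups compared.

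The supplement made no called difference to the chain at 38w. Between Ath+HF+BCAA 38w and Ath+HF 38w 0 members were called higher and 0 lower by limma, where 0% of all genes were called higher and 0% lower, and 3 of the 48 members and 1528 of the 19938 genes had an unadjusted p under 0.05. The log2 differences of the members ran from -0.40 to 0.35, the lowest adjusted p was 0.575, and the 95% intervals, with a median half-width of 0.22, lay within 0.5 of 0 on the log2 scale for 44 of the 48. This is a bound on the size of a difference and does not show that the diets acted alike. The methods' analysis of variance also called 0 members.

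**Figure D4:**
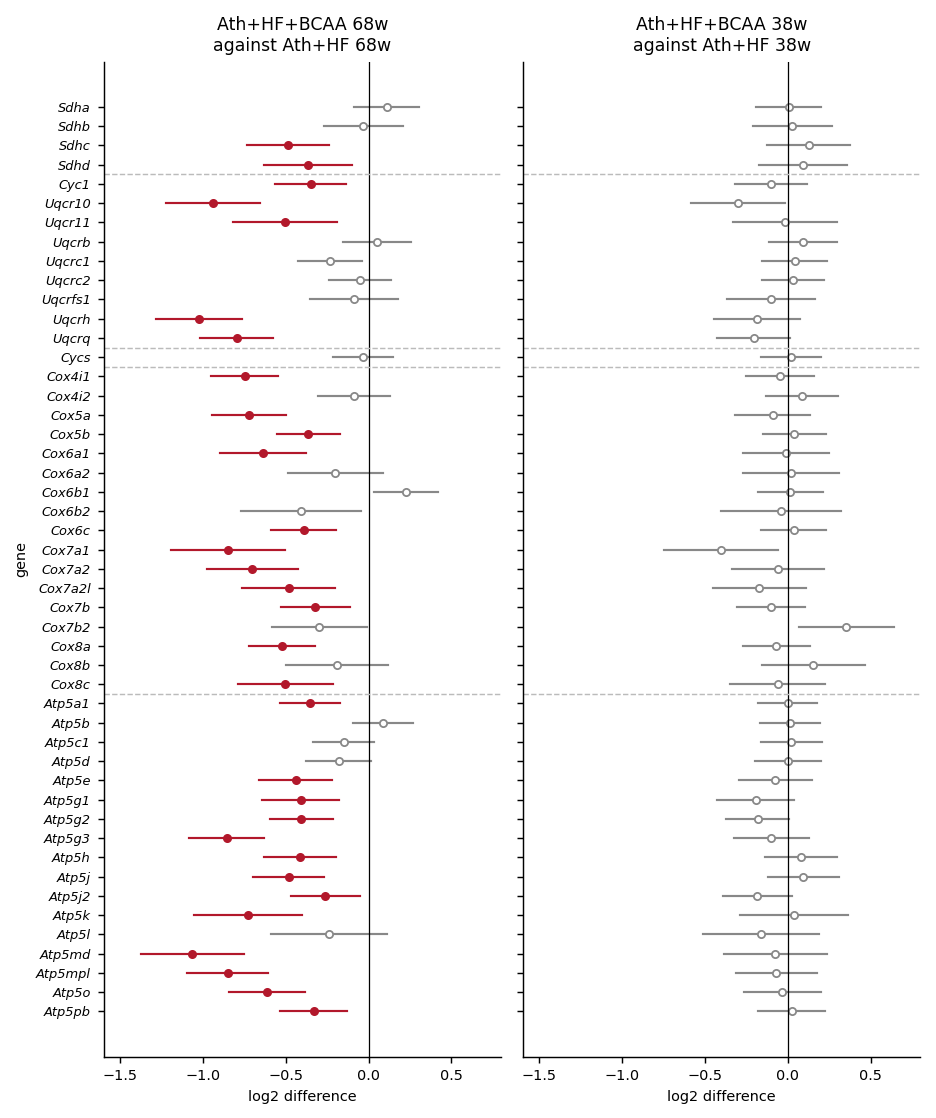
Log2 difference with its 95% interval (x axis) of each of the 48 members (y axis, by complex, parted by dashed lines) for Ath+HF+BCAA against Ath+HF at 68w (left) and 38w (right), filled red where called at an adjusted p under 0.05. At 68w 31 of the 48 are called and lower, and at 38w none is called. Intervals are not adjusted, so that a few that leave out 0, such as those of Cox6b1 and Uqcrc1, are not called.

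The difference of the supplement's effect between the ages was tested as an interaction. Of the 48 members 0 were called higher (12.9% of all genes) and 20 lower (7.67% of all genes), with a median of -0.37, and among genes with a mean log2 value of at least 10 23.1% were called lower against 17 of the 35 members as bright. The lowest were Atp5md (-0.99, SE 0.21, adjusted p = 0.00279), Uqcrh (-0.84, SE 0.17, adjusted p = 0.00254), Atp5mpl (-0.78, SE 0.16, adjusted p = 0.00256) and Atp5g3 (-0.76, SE 0.15, adjusted p = 0.0019). By complex these were 1 of 4 in complex II (Sdhc), 3 of 9 in complex III, 8 of 17 in complex IV and 8 of 17 in complex V. The number was 12 without Ath+HF+BCAA 68w replicate 2, 15 with quantile normalization and 29 with array medians set equal.

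The subunits that mitochondrial DNA encodes are represented by COX2 alone, a catalytic subunit of complex IV. Its signals were 13.37, 13.46 and 13.14 in Ath+HF+BCAA 68w, 13.39, 13.46 and 13.43 in Ath+HF 68w, 13.34, 13.39 and 13.36 in Ath+HF+BCAA 38w, 13.33, 13.38 and 13.40 in Ath+HF 38w and 13.28, 13.36 and 13.16 in basal 38w arrays. The 15 arrays ran from 13.14 to 13.46 with overlapping groups, and no comparison was called, with log2 differences of -0.10 between the 68w groups and 0.16 for Ath+HF 68w against basal 38w. Whether so bright a signal is compressed was not tested. The regulators of mitochondrial genes gave 1 called higher and 5 lower of 15 between the 68w groups, where 19.8% of all genes were higher and 16.4% lower. Tfam, which packs and transcribes mitochondrial DNA, had the largest of these differences. It measured 7.12, 7.23 and 7.14 in Ath+HF+BCAA 68w, 8.00, 8.02 and 7.76 in Ath+HF 68w, 8.35, 8.69 and 8.47 in Ath+HF+BCAA 38w, 8.58, 8.52 and 8.57 in Ath+HF 38w and 8.94, 9.13 and 8.79 in basal 38w arrays. The groups at 68w did not overlap with each other or with any array of 38w, and the log2 difference was -0.76 (SE 0.11, adjusted p = 6.5e-05) between the 68w groups, -1.78 (SE 0.11, adjusted p = 1.49e-08) for Ath+HF+BCAA 68w against basal 38w and -1.02 (SE 0.11, adjusted p = 2.05e-05) for Ath+HF 68w against basal 38w. The mitochondrial transcription factors Tfb1m (-0.38) and Tfb2m (-0.43), the deacetylase Sirt3 (-0.59) and the nuclear receptor Esrra (-0.30) were lower between the 68w groups as well, and Nfe2l2, the regulator of antioxidant genes, was higher (0.53). Against basal 38w 2 of the 15 regulators were higher and 6 lower in Ath+HF+BCAA 68w (22.9% and 21.8% of all genes). In Ath+HF 68w 3 were higher and 5 lower (19% and 19.1% of all genes). The 3 were the coactivators Ppargc1a (0.65), Ppargc1b (0.38) and Pprc1 (0.60), and the 5 were Tfam, Tfb1m (-0.72), Gabpa (-0.61), Sirt1 (-0.42) and Tfb2m (-0.37). Gabpa, the DNA-binding subunit of the ETS factor GABP, was also lower than basal in Ath+HF+BCAA 68w (-0.60) and was not called between the 68w groups (0.01).

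Assembly factors put the complexes together. Of 33 measured for complexes II to V, 2 were called higher and 9 lower between the 68w groups (19.8% and 16.4% of all genes). Against basal 38w these numbers were 0 and 24 in Ath+HF+BCAA 68w (22.9% and 21.8% of all genes). In Ath+HF 68w against basal 38w they were 1 and 17 (19% and 19.1% of all genes). The 2 higher between the 68w groups were Cmc1 (0.60) and Uqcc2 (0.57), and Cmc2 (-0.81), Cox19 (-0.78) and Tmem70 (-0.67), a factor for ATP synthase, were the lowest. Among factors that mature Sdha or Sdhb, Sdhaf2, Sdhaf3 and Sdhaf4 were lower than basal in both 68w groups, as Sdha and Sdhb were. Sdhaf1, a further factor of this kind, was measured too, and its values are not given here. Sdhaf4, a chaperone of Sdha, measured 6.90, 6.69 and 7.17 in Ath+HF+BCAA 68w, 6.95, 7.02 and 6.52 in Ath+HF 68w, 7.88, 7.88 and 7.22 in Ath+HF+BCAA 38w, 7.90, 7.80 and 7.63 in Ath+HF 38w and 7.93, 8.47 and 8.24 in basal 38w arrays. It was lower than basal at -1.29 (SE 0.19, adjusted p = 5.53e-05) in Ath+HF+BCAA 68w and -1.39 (SE 0.19, adjusted p = 0.000109) in Ath+HF 68w. Sdhaf2 was lower at -0.70 in Ath+HF+BCAA 68w and -0.73 in Ath+HF 68w, and Sdhaf3 at -0.82 in Ath+HF+BCAA 68w and -0.80 in Ath+HF 68w. None of these 3 was called between the 68w groups. For comparison, 25 of 35 complex I subunits and 35 of 77 mitochondrial ribosomal proteins were called lower in Ath+HF+BCAA 68w than in Ath+HF 68w, with medians of -0.49 and -0.25. Beside them stand 31 of the 48 members here with a median of -0.40, and 16.4% of all genes.

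For 13 members the array carries several clusters, 35 in all, which allows the same gene to be read with other probes. For most members the numbers of the clusters run together by chromosome. Those used for Atp5g2, Atp5md, Atp5pb, Atp5l, Cox6c, Cox7a2l, Cox7b and Cycs stand among the numbers of genes on other chromosomes. Such a cluster may read a copy of the gene. Where its probes lie was not checked. No gene had clusters called in opposite directions in any of the 9 comparisons. Between the 68w groups the clusters of all 13 genes had the same sign and those of 10 the same call, and against basal 38w all 13 had the same sign in both 68w groups. With the mean of a gene's clusters in place of the brightest, 31 members were again called lower between the 68w groups and 0 higher.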

How the data were processed

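RNA of frozen whole liver was measured on Affymetrix GeneChip Mouse Gene 1.0 ST arrays. With Affymetrix Expression Console (version not given in the sources used here) the authors computed RMA signals, that is background-corrected, quantile-normalized and summarized per transcript cluster, and deposited them as log2 values. Arrays were grouped by their labels, and 0 columns belonged to no sample. Clusters were named through the annotation of the platform, in which 21789 of 35556 had 1 symbol, 1621 several and 12146 none. The brightest cluster stood for each of the 19938 genes, 999 of which had several. Cox7c was left out because its 3 clusters carry a further symbol.

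All 15 arrays entered 1 linear model with a mean for each group (lmFit and eBayes of limma 3.58.1 in R 4.3.3), which left 10 residual degrees of freedom. Contrasts gave 9 comparisons, p-values were adjusted by Benjamini-Hochberg over all 19938 genes, with 0.05 as the threshold of a call. Errors of log2 differences are standard errors of the fit. The genes with values from every array were, per complex, the 3 members with the smallest p between the 68w groups and the one with the smallest p in each direction against basal, the largest and smallest differences of Ath+HF 38w, complex II, Cycs and the isoform pairs of complex IV. Genes outside the rule come from lists of regulators, assembly factors and cell markers. The members, lists and rules were chosen with earlier results of these data known. Alternatives were the mean of a gene's clusters, dim genes left out, the groups compared alone, equal array medians, quantile normalization, the replicate number as a block, weights for arrays, a variance trend with a robust fit, the methods' analysis of variance, and each array left out. Depth has no counterpart on arrays, and their number limits the precision. Promoter windows come from RefSeq (GRCm38.p6), and 12 members had none.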

Additional observations from a re-analysis of the deposited data

Results flagged for a closer look

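For 20 members and for Atpif1 the effect of the supplement, as the arrays are labelled, differed between 68w and 38w. This was by the test of the difference itself, the log2 difference of Ath+HF+BCAA against Ath+HF at 68w minus that at 38w. In complex II this was Sdhc (-0.61). In complex III it was Uqcrh (-0.84), Uqcr10 (-0.64) and Uqcrq (-0.59). In complex IV it was Cox4i1 (-0.70), Cox7b2 (-0.65), Cox7a2 (-0.64), Cox5a (-0.63), Cox6a1 (-0.63), Cox8a (-0.45), Cox6c (-0.43) and Cox5b (-0.40). In complex V it was Atp5md (-0.99), Atp5mpl (-0.78), Atp5k (-0.77), Atp5g3 (-0.76), Atp5o (-0.58), Atp5j (-0.57), Atp5h (-0.49) and Atp5a1 (-0.35). The calls of Atp5a1 and Cox5b were lost in 13 and 9 of the 15 fits that left out an array, and those of the other members in 6 at most. All 20 were negative, and 7.67% of all genes were called lower in this test. Atpif1, the inhibitor of ATP synthase, had the opposite sign (1.37). Cox7b2, known from testis, lay below the median brightness of all genes and was not called between the 68w groups.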

How the results depend on the processing

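Calls of members were compared over 9 alternatives and with each of the 15 arrays left out. No called member changed sign. In the alternatives 84 calls were lost and 1432 kept, each call counted once per alternative. Of the 84, quantile normalization took 29 and the methods' analysis of variance 19. With an array left out 192 calls were lost and 2388 kept, counted once per array. The count of members lower in Ath+HF 38w against basal 38w (2) was 1 with the groups compared alone, with array weights and with the replicate block. That of Ath+HF+BCAA 38w against basal 38w (5) was 0 with the groups compared alone and 1 with array weights. Members higher in Ath+HF 68w against basal 38w (7) were 3 with equal array medians and 4 with the methods' analysis of variance. In Ath+HF+BCAA 68w against basal 38w (2) they were 1 with dim genes left out, equal array medians or the methods' analysis of variance. In Ath+HF 68w against Ath+HF 38w (9) they were 14 with a variance trend and robust fit and 15 with array weights. In Ath+HF+BCAA 68w against Ath+HF+BCAA 38w (2) they were 1 with the groups compared alone, equal array medians, the replicate block or the methods' analysis of variance, and 5 with quantile normalization. Between the 68w groups (0) they were 1 with dim genes left out, a variance trend and robust fit or array weights, and 3 with quantile normalization. The median of complex IV in Ath+HF 68w against Ath+HF 38w (0.14) was -0.13 with dim genes left out, which drops all 7 dim isoforms. Between the 68w groups the median over all genes was -0.23 with equal array medians and -0.09 without.

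With arrays left out in turn, members lower ran over 0 to 2 (Ath+HF 38w against basal 38w), 0 to 5 (Ath+HF+BCAA 38w against basal 38w), 18 to 20 (Ath+HF 68w against basal 38w), 30 to 35 (Ath+HF+BCAA 68w against basal 38w), 11 to 15 (Ath+HF 68w against Ath+HF 38w), 24 to 27 (Ath+HF+BCAA 68w against Ath+HF+BCAA 38w), 26 to 33 (between the 68w groups), 0 to 0 (between the 38w groups) and 12 to 20 (the interaction, lowest without Ath+HF+BCAA 68w replicate 2). Members higher ran over 3 to 8 (Ath+HF 68w against basal 38w), 2 to 2 (Ath+HF+BCAA 68w against basal 38w), 8 to 13 (Ath+HF 68w against Ath+HF 38w) and 1 to 3 (Ath+HF+BCAA 68w against Ath+HF+BCAA 38w, at 1 without Ath+HF+BCAA 68w replicate 1 or replicate 3), and were 0 to 0 in the others. Whether the numbers in the titles pair the samples is not stated. Same-numbered arrays deviated together at a correlation of -0.16 to 0.18, with 3 of 30 pairs over 0.1, and other-numbered arrays at -0.19 to 0.20. No sign of pairing was seen, but with 3 arrays in a group this check cannot exclude it. With the replicate block 30 members were lower between the 68w groups.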
